A study of Mus musculus with 2 samples.

Results

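Genes of glycolysis, glucose transport and the response to low oxygen were followed in organoids of the squamous epithelium that lines the mouse forestomach. The set was defined by 49 gene symbols, from the glucose transporters through the glycolytic enzymes to lactate export, the pyruvate dehydrogenase kinases, glycogen enzymes and the hypoxia-inducible factor (HIF) system. A member was represented by the probe set that carried its symbol alone and had the highest mean signal over both arrays, and 48 of the 49 were found among 29456 genes. SOX2 KO organoids came from Krt5CreER/+; Sox2∆/∆; ROSA26tdTomato/+ mice, in which Cre is driven by the promoter of the basal keratin gene Krt5 and deletion was induced with tamoxifen. The tdTomato allele is a fluorescent reporter of Cre activity. WT control organoids came from mice labelled wild type, which the study describes as littermates lacking Krt5CreER. Each group was 1 culture on 1 Affymetrix Mouse Gene 2.0 ST array, so genotype cannot be told apart from mouse, culture, passage, Cre or tdTomato expression, or array. No replicate error exists and no p-value is given for any difference.

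Glucose enters epithelial cells through facilitative transporters, is trapped by hexokinase and is split by the glycolytic enzymes to pyruvate, which is either reduced to lactate and exported or admitted to mitochondria by the pyruvate dehydrogenase complex. When oxygen is scarce, prolyl hydroxylases no longer mark HIF alpha subunits for degradation, and HIF raises transcription of many glycolytic genes along with genes of blood vessel growth, pH control and mitochondrial turnover. HIF activity is set largely at the level of protein, so the mRNA of its subunits reports only a part of it. The comparison addressed whether transcripts of this system differed in squamous cells lacking SOX2, a regulator of gene transcription in the foregut.

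Values are log2 array signals as deposited, and differences are SOX2 KO minus WT control. A gene was counted above the floor when at least 1 array reached 3.30, the median of all gene values, which left 15983 genes and 44 members. A background stand-in of 3.84 was taken from the 95th percentile of 1127 olfactory receptor genes, which squamous cells are not known to use. The SD of the difference over these receptor genes, 0.262, served as a measure of the scatter of dim signals and contains no variation between cultures. The Sox2 signal was 2.53 in SOX2 KO and 5.74 in WT control, a difference of -3.21 in the direction of the labels. The basal squamous genes Krt5 (8.71 in SOX2 KO, 8.86 in WT control), Krt14 and Trp63 were well above background on both arrays, and over all probe sets the SOX2 KO array had a median of 3.29 and the WT control array one of 3.30.

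The arrays differed in cell composition markers. The basal gene Krt15 read 8.73 in SOX2 KO and 7.5 in WT control, a difference of 1.23, the only one of 4 basal markers past 2-fold. The suprabasal genes Krt13, Krt4, Krt6a and Sprr3 were lower in SOX2 KO, with differences between -2.19 and -0.97, while the suprabasal gene Ivl was 0.22 higher. All 6 smooth muscle markers were higher in SOX2 KO, by 0.65 to 2.89, with single markers at 4.25 to 7.05 in SOX2 KO and 3.10 to 4.16 in WT control and a sum of log2 signals of 32.0 in SOX2 KO and 22.08 in WT control. The fibroblast gene Dcn stood at 5.90 in SOX2 KO and 2.83 in WT control. The other fibroblast markers did not follow it to that extent. Col1a1 was 0.30 and Col1a2 0.64 higher in SOX2 KO. Col3a1, Lum and Pdgfra, 3 of the 6 markers, lay below the background stand-in on both arrays, with differences between -0.10 and -0.05. The leukocyte gene Lyz2 read 4.54 in SOX2 KO and 2.80 in WT control, and Cd68 7.39 in SOX2 KO and 7.18 in WT control. The other 3 of 5 leukocyte markers were below background on both arrays. Below background on both arrays were also 4 of 5 endothelial, 4 of 5 adipocyte, 3 of 5 striated muscle and 5 of 6 gastric gland markers. The part of these differences in the values of the metabolic genes was not tested. In such bulk RNA, fewer cells of a type and less RNA per cell cannot be told apart.

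Most glycolysis and hypoxia genes had nearly the same signal on both arrays. Of the 44 members above the floor, 19 were higher in SOX2 KO, 24 were lower and 1 was equal. Of all genes above the floor, 47.8% were higher and 49.4% lower. Their median difference was -0.015, against 0.00 over all 15983 genes above the floor. The median size of the difference, regardless of sign, was 0.18 for the members and 0.22 for all genes. Differences within the receptor SD were found for 30 members (68.2%) and for 58.5% of all genes. Only Gbe1, which encodes the glycogen branching enzyme, reached a 2-fold higher signal, 1 of 44 members beside 2.01% of all genes above the floor. None of the 44 was 2-fold lower, beside 0.795% of all genes. At 1.5-fold, Gbe1 and Pfkfb2 were higher, 2 of 44 beside 6.45% of all genes, and no member was lower, beside 4.43% of all genes. The counts of members are thus small and near or below what those shares give for 44 genes. Gbe1 and Pfkfb3 passed the floor only through the SOX2 KO array and Pfkfb4 only through the WT control array. With the floor on both arrays, 41 members had a median of -0.02. With both arrays required to exceed the background stand-in, 30 members remained, with differences between -0.52 and 0.93.

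**Figure D1:**
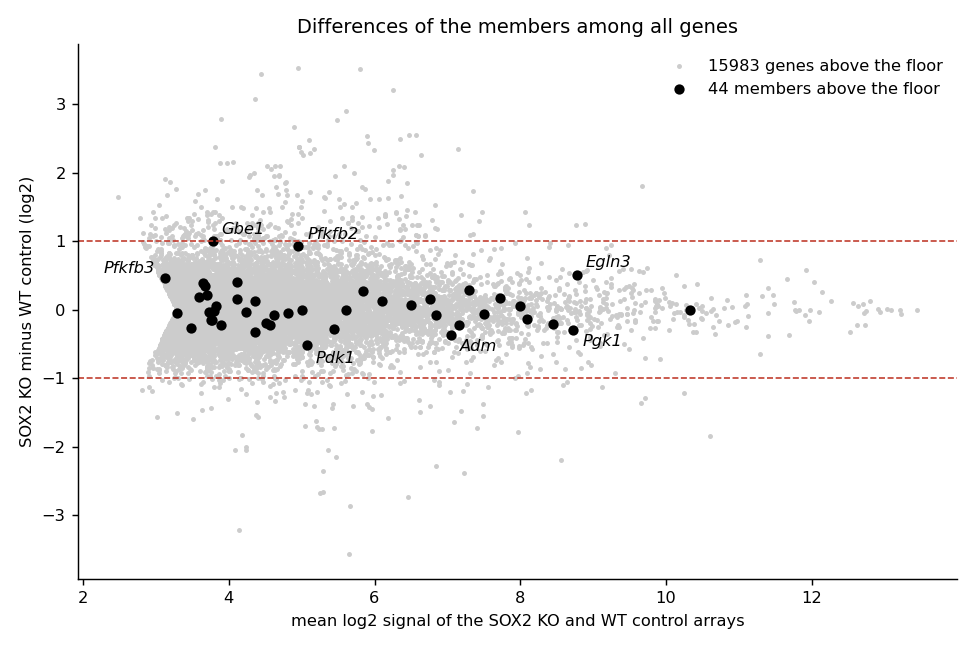
Difference between the SOX2 KO and WT control arrays (log2, y axis) against the mean log2 signal of both arrays (x axis) for 15983 genes above the floor (grey) and 44 members (black), with dashed lines at 2-fold. The members lie within the cloud of all genes between -0.52 for Pdk1 and 1.00 for Gbe1. The labelled genes are Gbe1, Pfkfb2, Egln3, Pfkfb3, Pdk1, Adm and Pgk1.

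Promoter windows of 300 bases, from 250 before to 50 after the start of the transcript, were taken from the RefSeq table of build GRCm38.p6. It held 61 windows for 44 of the 49 members. The core of the hypoxia response element, ACGTG or GCGTG on either strand, was present in 47 of the 61 windows (77.0%) and in 14380 of 32851 windows of all genes (43.8%). ACGTG alone was in 50.8% of member windows and 19.6% of all windows, and GCGTG alone in 52.5% and 32.4%. The member windows were richer in G and C, with a median of 60.7% against 52.7% for all windows, and both cores are themselves rich in these bases. ACGTG is also contained in the E-box CACGTG. A core of SOX sites, ACAATG or ACAAAG on either strand, was in 19.7% of member windows and 28.6% of all windows. A match is a description of letters and not a bound site.

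The windows of 3 genes with some of the largest differences are shown because their signals differed in opposite directions and their promoters differ in hypoxia core matches, which are in capitals. Egln3 was higher in SOX2 KO and has 1 match, at chr12:54203825-54204124 on the minus strand. Pdk1 was lower and has 2 matches, at chr2:71872974-71873273 on the plus strand. Gbe1 was higher and has 0 matches, at chr16:70313699-70313998 on the plus strand.
Egln3: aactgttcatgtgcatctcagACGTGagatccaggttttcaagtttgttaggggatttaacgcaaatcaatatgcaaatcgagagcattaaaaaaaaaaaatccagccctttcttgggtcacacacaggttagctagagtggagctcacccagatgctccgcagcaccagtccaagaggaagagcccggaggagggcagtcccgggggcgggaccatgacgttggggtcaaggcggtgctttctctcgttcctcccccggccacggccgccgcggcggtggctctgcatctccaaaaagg
Pdk1: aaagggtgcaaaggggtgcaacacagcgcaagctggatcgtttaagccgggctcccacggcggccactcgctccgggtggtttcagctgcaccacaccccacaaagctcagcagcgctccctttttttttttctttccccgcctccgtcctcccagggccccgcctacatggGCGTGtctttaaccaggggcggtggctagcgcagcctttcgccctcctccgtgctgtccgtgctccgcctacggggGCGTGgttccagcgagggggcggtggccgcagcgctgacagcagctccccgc
Gbe1: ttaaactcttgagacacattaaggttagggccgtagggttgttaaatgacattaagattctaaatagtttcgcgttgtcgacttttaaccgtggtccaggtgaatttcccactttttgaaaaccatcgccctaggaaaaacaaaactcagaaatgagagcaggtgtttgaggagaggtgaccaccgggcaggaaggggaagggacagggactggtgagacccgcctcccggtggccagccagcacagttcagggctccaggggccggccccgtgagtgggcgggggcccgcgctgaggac
The Pdk1 window also holds a SOX core, and those of Egln3 and Gbe1 hold none. A second Pdk1 window, at chr2:71874654-71874953, has 0 hypoxia core matches and no SOX core. Pfkfb2, with the next largest difference after Gbe1, has hypoxia core matches in all 3 of its windows (1, 4 and 1) and a SOX core in each. These windows lie 13205 to 14677 bases from the start of the Pfkfb2 probe set, and 2 of them overlap.

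The main glucose transporter of the set, Slc2a1 (GLUT1), was clearly expressed and hardly differed. Its signal was 6.80 in SOX2 KO and 6.88 in WT control, a difference of -0.08. The insulin-responsive transporter gene Slc2a4 read 3.68 in SOX2 KO and 3.83 in WT control, and Slc2a3, known for high-affinity uptake in neurons, 2.72 in SOX2 KO and 2.76 in WT control. Both were below the background stand-in on both arrays, so no fold is given. Of 11 further transporters of glucose and related sugars, 6 were above the floor, with a median of -0.11 and 0 past 2-fold. The lowest of these was the sodium-coupled transporter gene Slc5a1, at 2.95 in SOX2 KO and 3.63 in WT control, again below background on both arrays. Slc2a8, Slc2a13 and Slc2a6 lay between 3.27 and 3.60 in SOX2 KO and between 3.36 and 3.74 in WT control, without a signal over background.

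The enzymes of the glycolytic sequence itself showed small differences. Of 15 preparatory and payoff enzymes, 14 were above the floor, with differences between -0.29 and 0.27, a median of -0.015 and a median size of 0.06. Only 10 of the 14 were above background on both arrays, among them Gapdh, whose value is uncertain as described below. Signals near background and the Gapdh value therefore enter the median size. Within the receptor SD lay 12 of the 14. The exceptions were Pgk1 and Pfkp. Pgk1, whose product makes the first ATP of the payoff phase, read 8.58 in SOX2 KO and 8.87 in WT control, a difference of -0.29. Pfkp, the platelet-type phosphofructokinase gene, read 5.98 in SOX2 KO and 5.71 in WT control, a difference of 0.27.

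The hexokinase genes, whose products commit glucose to the cell, had nearly equal signals. Hk1 read 5.01 on both arrays. Hk2, the isoform most often tied to high glucose use in growing cells, read 4.79 in SOX2 KO and 4.84 in WT control. Gpi1, the phosphoglucose isomerase gene, read 8.02 in SOX2 KO and 7.96 in WT control. These 3 genes were above background on both arrays, with differences of at most 0.06 in size. Of the other phosphofructokinase genes, Pfkl read 3.70 in SOX2 KO and 3.85 in WT control, at the edge of background. The muscle-type gene Pfkm read 2.76 in SOX2 KO and 2.98 in WT control and was below the floor.

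The aldolase gene Aldoa had 2 probe sets that disagreed in sign. The brighter one (build mm10, chr7:126800790-126812791) read 4.19 in SOX2 KO and 4.03 in WT control, and the other (chr7:126795234-126800751) 3.94 in SOX2 KO and 4.08 in WT control. The Aldoa promoter windows lie 12344 to 13613 bases from the start of the brighter probe set. They fall outside it and within the other probe set. Both differences, 0.16 and -0.14, were within the receptor SD, so no direction is given for Aldoa. Aldoc, the brain-enriched isoform, read 3.79 in SOX2 KO and 3.81 in WT control, below background. Tpi1, encoding triose phosphate isomerase, read 6.84 in SOX2 KO and 6.68 in WT control, a difference of 0.16.

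Among the later enzymes, Pkm and Pgam1 were expressed and close to equal. Pkm, the pyruvate kinase gene of most dividing cells, read 8.03 in SOX2 KO and 8.16 in WT control, a difference of -0.13. Pgam1, for phosphoglycerate mutase, read 4.22 in SOX2 KO and 4.26 in WT control. Eno1, the ubiquitous enolase gene, read 3.71 in SOX2 KO and 3.75 in WT control, below the background stand-in on both arrays. The array therefore gives no fold for Eno1. Eno2, the neuronal enolase gene, read 3.85 in SOX2 KO and 3.79 in WT control and was likewise at the edge of background.

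**Figure D2:**
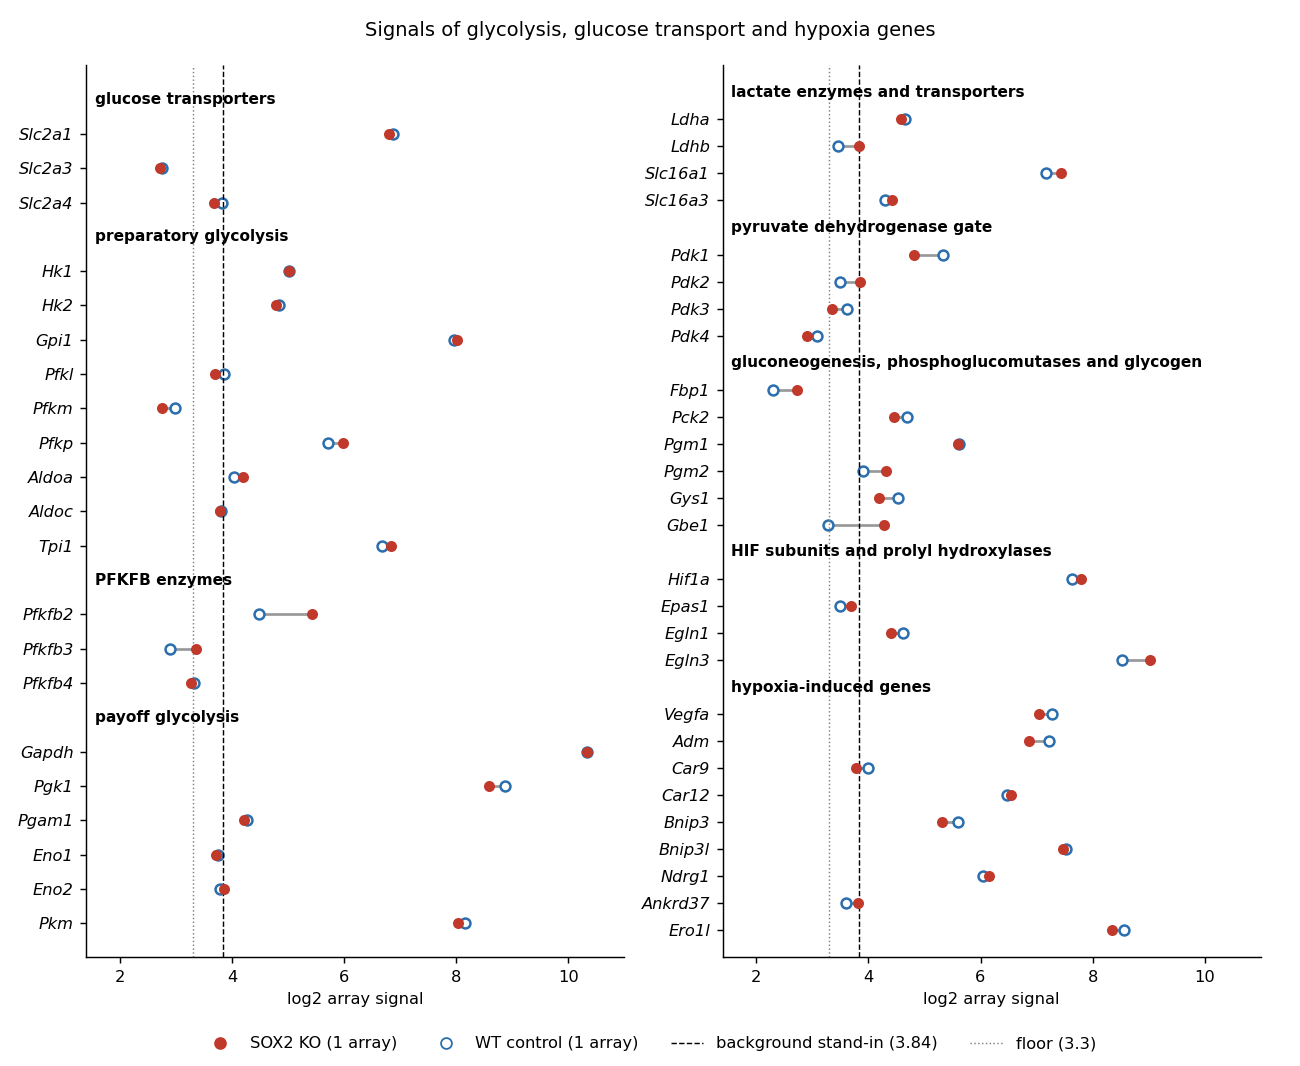
Log2 array signal (x axis) of the 48 members found, in SOX2 KO (filled red) and WT control (open blue), 1 array each, grouped by role, with lines at the background stand-in (dashed, 3.84) and the floor (dotted, 3.30). The pairs of points overlap or nearly overlap for most glycolytic enzymes, while Pfkfb2, Gbe1, Pdk1 and Egln3 show visible gaps.

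Gapdh, the glyceraldehyde phosphate dehydrogenase gene often used as a loading reference, was not above the floor at its own locus. The probe set at the gene (chr6:125161854-125166467) read 2.73 in SOX2 KO and 2.60 in WT control, below the floor. The 5 other probe sets annotated to Gapdh alone lay on chromosomes 4, 5, 7, 11 and 15, spanned 1251 to 1272 bases and read 9.24 to 10.33 in SOX2 KO and 9.25 to 10.34 in WT control. Each of the 5 gave a difference of -0.01. The value taken by the highest-signal rule, 10.33 in SOX2 KO and 10.34 in WT control, was from chr4:91851469-91852735 and equalled that from chr7:51746631-51747902. Another probe set, shared with a Gapdh pseudogene on chromosome Y, read 6.02 in SOX2 KO and 6.28 in WT control. The array's annotation described 12 further probe sets as Gapdh pseudogenes, with differences between -0.72 and 0.22, of which 5 were above background on both arrays. Whether the bright probe sets read Gapdh transcripts or those of near-identical copies cannot be told apart, and the Gapdh value is uncertain for that reason.

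**Figure D3:**
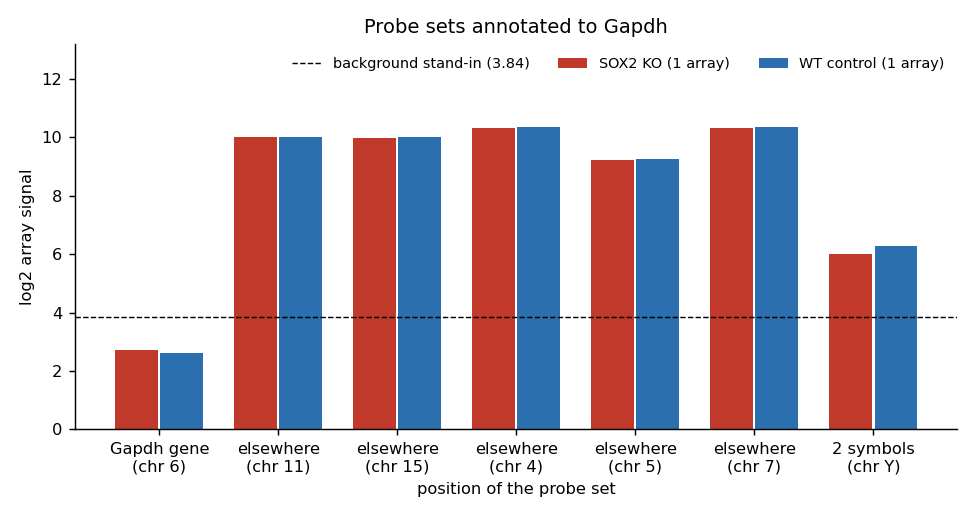
Log2 array signal (y axis) of the 7 probe sets annotated to Gapdh, by their position, in SOX2 KO (red) and WT control (blue), 1 array each, with the background stand-in of 3.84 dashed. The probe set at the Gapdh gene lies below background at 2.73 in SOX2 KO and 2.60 in WT control, and the 5 elsewhere with Gapdh as their only symbol lie above 9.

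Pfkfb2 stood apart from the other enzymes. The PFKFB enzymes make and break the fructose bisphosphate that activates phosphofructokinase, and Pfkfb2 is the isoform best known from heart. Its signal was 5.42 in SOX2 KO and 4.49 in WT control, a difference of 0.93 or 1.91-fold, with both arrays above background. A difference at least this high was found in 2.41% of all genes above the floor. Pfkfb3, the isoform known as a hypoxia-induced driver of glycolysis, read 3.35 in SOX2 KO and 2.89 in WT control, and Pfkfb4 3.27 in SOX2 KO and 3.32 in WT control. Both isoforms stayed below background, so the difference of 0.46 for Pfkfb3 has no fold.

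Of the 4 lactate genes 3 were higher in SOX2 KO, beside 47.8% of all genes above the floor, and none passed 1.5-fold. Ldha, encoding the subunit that favours lactate formation, read 4.58 in SOX2 KO and 4.66 in WT control. Ldhb, the subunit favouring pyruvate, read 3.84 in SOX2 KO, equal to the background stand-in, and 3.45 in WT control. Slc16a1, the monocarboxylate transporter MCT1, read 7.44 in SOX2 KO and 7.16 in WT control, a difference of 0.28. The hypoxia-induced lactate exporter gene Slc16a3 read 4.42 in SOX2 KO and 4.30 in WT control, a difference of 0.12. Bsg, the chaperone that brings both of these transporters to the membrane, was also higher, at 7.47 in SOX2 KO and 7.20 in WT control. The differences of Slc16a1 and Bsg were just outside the receptor SD.

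The pyruvate dehydrogenase kinases, which switch off entry of pyruvate carbon to the mitochondria, differed in sign among themselves. Pdk1, the isoform induced by HIF, was the lowest of all members. Its signal was 4.81 in SOX2 KO and 5.33 in WT control, a difference of -0.52 or 1.43-fold lower. A difference at least this low was found in 6.24% of all genes above the floor. Pdk2 read 3.85 in SOX2 KO and 3.50 in WT control, only just over background on 1 array. Pdk3 (3.35 in SOX2 KO, 3.61 in WT control) and the fasting-induced Pdk4 (2.91 in SOX2 KO, 3.08 in WT control) were below background. Pdha1, encoding the enzyme's alpha subunit, was the member not found by the rule, since its probe set carried a second symbol. That shared probe set read 6.0 in SOX2 KO and 6.38 in WT control, a difference of -0.38.

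Of 9 other genes of pyruvate entry above the floor, 6 were lower in SOX2 KO, beside 49.4% of all genes above the floor, with 0 past 2-fold and a median of -0.19. Of the 5 above background on both arrays, 3 were lower (Pdhb, Dlat and Dld) and 2 higher (Pdp1 and Bsg). Dld, encoding the shared dehydrogenase subunit, read 7.07 in SOX2 KO and 7.46 in WT control, a difference of -0.39. Mpc1, for the mitochondrial pyruvate carrier, read 3.65 in SOX2 KO and 4.12 in WT control, but its difference of -0.47 turned to 0.42 with probe sets of several symbols included. No direction is therefore given for Mpc1. Pdhx read 2.94 in SOX2 KO and 3.37 in WT control, below background. Of 18 other glycolytic enzymes and regulators, 9 were above the floor, with 0 past 2-fold and a median of -0.11. Minpp1 read 4.79 in SOX2 KO and 4.99 in WT control, and the liver and red cell pyruvate kinase gene Pklr 3.89 in SOX2 KO and 4.02 in WT control. Ldhd read 3.48 in SOX2 KO and 3.72 in WT control, below background.

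The largest difference of any member was that of Gbe1. Its signal was 4.28 in SOX2 KO and 3.28 in WT control, a difference of 1.00. Because the WT control value lay below the background stand-in, the fold computed against that level is at least 1.36-fold higher. Gys1, which encodes the glycogen synthase of most tissues, leaned the other way, at 4.19 in SOX2 KO and 4.52 in WT control. The members named for glycogen thus did not share a direction. The gluconeogenesis gene Pck2 read 4.45 in SOX2 KO and 4.68 in WT control, and Fbp1 read 2.72 in SOX2 KO and 2.30 in WT control, below the floor.

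The array's symbols for the phosphoglucomutases, which connect glycogen to glycolysis, are exchanged relative to RefSeq. The probe set named Pgm1 on the array lies on chromosome 5 at the gene RefSeq calls Pgm2, and read 5.60 in SOX2 KO and 5.61 in WT control. The one named Pgm2 lies on chromosome 4 at the gene RefSeq calls Pgm1, the main phosphoglucomutase, and read 4.32 in SOX2 KO and 3.91 in WT control, a difference of 0.41. The difference therefore belongs to the RefSeq gene Pgm1.

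Other glycogen genes lay in both directions. Of 18 genes of glycogen and glucose phosphate metabolism outside the members, 15 were above the floor, with 9 higher, 5 lower and a median of 0.22. Over all genes above the floor, 47.8% were higher and 49.4% lower. Pygl and Ppp1r3c passed the floor only through the SOX2 KO array, and with the floor on both arrays 13 genes remained, 7 higher and 5 lower, with a median of 0.02 beside 0.00 for all genes. Only 4 of the 18 were above background on both arrays. Pygl, the liver-type glycogen phosphorylase gene, read 3.93 in SOX2 KO and 2.84 in WT control, at least 1.06-fold higher and the only gene of the list past a difference of 1. Ppp1r3c, a glycogen-targeting subunit of protein phosphatase, read 3.32 in SOX2 KO and 2.42 in WT control, below background on both arrays. The related Ppp1r3b read 3.99 in SOX2 KO and 3.53 in WT control. Pgm5, a phosphoglucomutase relative found at muscle adhesion sites, read 3.94 in SOX2 KO and 3.46 in WT control. All 6 smooth muscle markers were higher in the same SOX2 KO library, and their part in these values was not tested.

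Apart from Epas1, the members encoding HIF subunits and prolyl hydroxylases were above background on both arrays. Hif1a, the main oxygen-regulated alpha subunit, read 7.80 in SOX2 KO and 7.63 in WT control, a difference of 0.17. Epas1, encoding the alpha subunit best known from endothelium, read 3.69 in SOX2 KO and 3.50 in WT control, below background. Of the prolyl hydroxylases that sense oxygen, Egln1 read 4.41 in SOX2 KO and 4.61 in WT control. Egln3, itself a well-known HIF target, read 9.03 in SOX2 KO and 8.52 in WT control, a difference of 0.51 or 1.42-fold. A difference at least as high as that of Egln3 was found in 8.40% of all genes above the floor. Hif1a and Egln1 lay within the receptor SD and Egln3 outside it.

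Of 13 further HIF pathway components, 12 were above the floor, with 9 higher, 3 lower, 0 past 2-fold and a median of 0.18. Over all genes above the floor, 47.8% were higher and the median was 0.00. Above background on both arrays were 8 of these components, with 7 higher and 1 lower. Under quantile scaling the median of the 12 was 0.119. Arnt, the constant beta partner of the HIF alpha subunits, had the largest difference, at 5.48 in SOX2 KO and 4.49 in WT control, 1.99-fold. The coactivator genes Crebbp (7.17 in SOX2 KO, 6.68 in WT control) and Ep300 (6.38 in SOX2 KO, 5.89 in WT control) each had a difference of 0.49. Tceb1, encoding the elongin C subunit of the ubiquitin ligase that removes HIF alpha, read 7.17 in SOX2 KO and 6.89 in WT control. The genes Tceb2 (0.18), Cul2 (0.19) and Rbx1 (0.10) of the same ligase were also higher, and Vhl (-0.15, below background on both arrays) was lower. The list thus mixes genes that act for and against HIF, and its median gives no direction of HIF activity.

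Among the 9 members grouped as hypoxia-induced, more were lower than higher. Of the 9, 6 were lower and 3 higher in SOX2 KO, with a median of -0.21. Over all genes above the floor, 49.4% were lower and the median was 0.00. Within the receptor SD lay 7 of the 9. None of the 9 passed 1.5-fold. Egln3, Pfkfb3, Slc16a3 and Pdk1, grouped elsewhere, are also described above as induced by HIF or hypoxia. Egln3 (0.51), Pfkfb3 (0.46, below background on both arrays) and Slc16a3 (0.12) were higher in SOX2 KO, and Pdk1 (-0.52) was lower. The split therefore depends on how the members were grouped. Adm, encoding the vasodilator adrenomedullin, read 6.86 in SOX2 KO and 7.23 in WT control, a difference of -0.37 or 1.29-fold lower. Bnip3, which acts in removal of mitochondria, read 5.31 in SOX2 KO and 5.59 in WT control, a difference of -0.28. Adm and Bnip3 were the 2 of the 9 genes outside the receptor SD, and both were lower in SOX2 KO. Vegfa, the angiogenic growth factor gene, read 7.05 in SOX2 KO and 7.27 in WT control. Ero1l, the endoplasmic reticulum oxidase gene that RefSeq calls Ero1a, read 8.35 in SOX2 KO and 8.56 in WT control. Car9, the carbonic anhydrase gene much used as a hypoxia marker, read 3.78 in SOX2 KO and 4.0 in WT control, close to background on both arrays.

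Of the remaining members of the group of 9, 3 were nearly equal. Bnip3l, the relative of Bnip3, read 7.47 in SOX2 KO and 7.53 in WT control. The carbonic anhydrase gene Car12 read 6.54 in SOX2 KO and 6.47 in WT control. Ndrg1, a gene induced by several stresses, read 6.16 in SOX2 KO and 6.04 in WT control. All 3 were above background, with differences of at most 0.12 in size. Ankrd37 read 3.81 in SOX2 KO and 3.60 in WT control, a difference of 0.21 with both arrays below background. Under quantile scaling of the arrays the split of the 9 genes was 1 higher and 8 lower, with a median of -0.17. That scaling put the median of all genes above the floor at -0.038. Car12 (-0.088) and Ndrg1 (-0.001) changed sign under it.

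**Figure D4:**
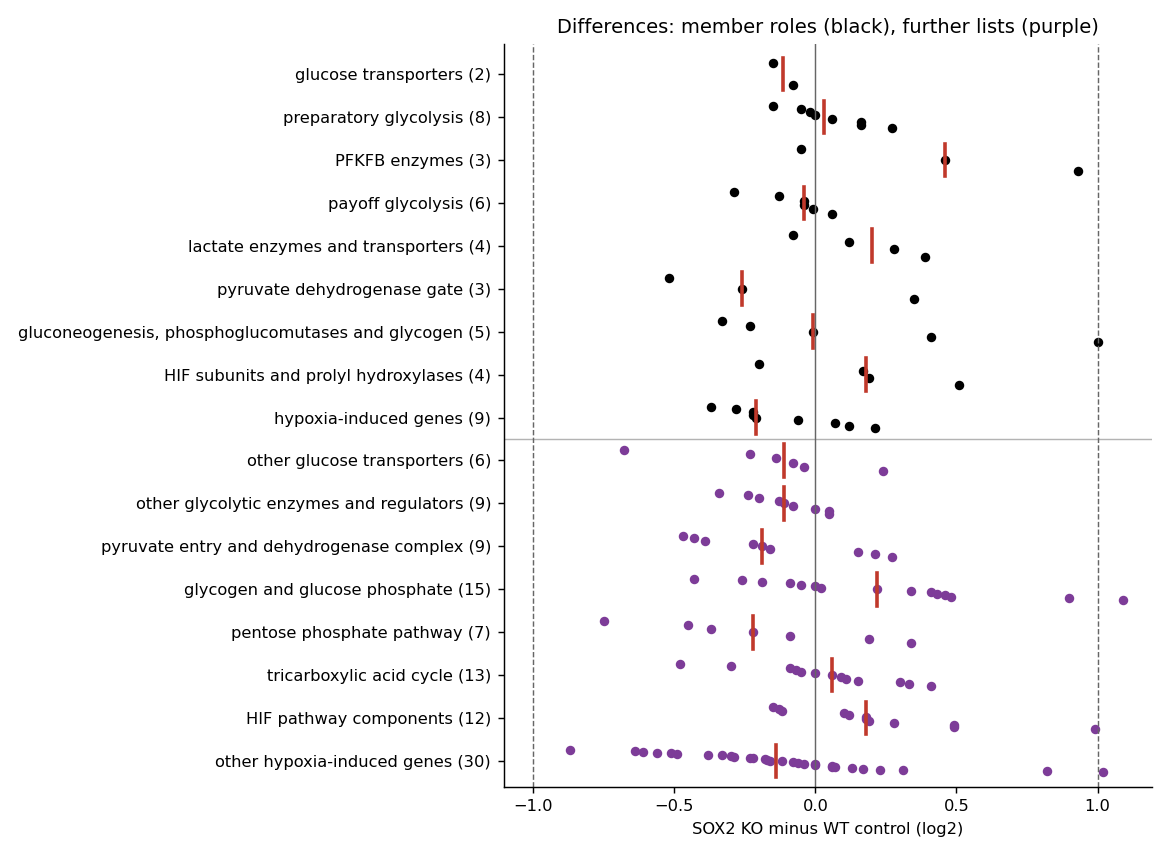
Difference between the SOX2 KO and WT control arrays (log2, x axis) for each gene above the floor, by role of the members (black) and in 8 further lists (purple), with the number of genes in brackets, the median of each list as a red bar and dashed lines at 2-fold. The hypoxia-induced genes centre at -0.21 and the HIF pathway components at 0.18, and the preparatory and payoff enzymes cluster around 0.

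A wider list of hypoxia-induced genes had a median of the same sign. Of 37 genes, 30 were above the floor, with 9 higher, 19 lower, 2 equal and a median of -0.14. Of all genes above the floor, 49.4% were lower. With the floor on both arrays 28 genes of the list remained, with a median of -0.10. Without a floor the 37 had a median of -0.08. Past 2-fold lay 1 of the 30 in the higher direction and 0 in the lower. That gene was Bhlhe41, a transcription factor of the circadian clock, at 4.54 in SOX2 KO and 3.52 in WT control, at least 1.62-fold higher. Insig2, a regulator of sterol synthesis, read 4.67 in SOX2 KO and 3.85 in WT control, 1.77-fold higher. Igfbp3, a binding protein of insulin-like growth factors, read 6.28 in SOX2 KO and 6.92 in WT control, 1.56-fold lower. The histone demethylase gene Kdm4b read 3.04 in SOX2 KO and 3.91 in WT control, of which only the WT control value was over background. The median of this list was below that of all genes, but single genes of it lay in both directions.

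The pentose phosphate pathway, which draws glucose phosphate away from glycolysis to make NADPH and ribose, held a larger difference than any member in the lower direction. G6pdx, whose product catalyses the committed step, read 5.43 in SOX2 KO and 6.18 in WT control, a difference of -0.75 or 1.68-fold lower. Pgls, for the next enzyme, read 4.13 in SOX2 KO and 4.58 in WT control. Taldo1, encoding transaldolase, read 4.71 in SOX2 KO and 5.08 in WT control. These 3 genes were above background on both arrays and each was lower in SOX2 KO by more than the receptor SD. H6pd, a related enzyme of the endoplasmic reticulum, read 3.96 in SOX2 KO and 3.62 in WT control. Of the 7 genes above the floor 5 were lower, beside 49.4% of all genes above the floor, with a median of -0.22 and 0 past 2-fold. Of the 6 above background on both arrays, 5 were lower and 1, Rpe, was 0.19 higher. Tkt, also on the list, had no probe set carrying its symbol alone and was not counted.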

How the data were processed

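RNA of 1 SOX2 KO and 1 WT control forestomach organoid culture was labelled with the WT Plus assay and hybridized to Mouse Gene 2.0 ST arrays. Normalization was done by the authors with Transcriptome Analysis Console, and the deposited log2 signals cover 34472 probe sets at 2 decimals, annotated on mm10. Neither the version nor the probe summarization method is stated in the sources used here. Deposited fold changes and p-values were not used, and 0 values of the series value table differed from these signals. Groups followed the genotype labels.

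Of the probe sets, 29971 had 1 symbol, 1902 several and 2599 none. The 1-symbol class gave the genes. Accessions placed 46 members at their RefSeq gene, while Aldoa and Gapdh had no accession match. Folds against an array below the background stand-in were computed against it and are given as at least N-fold. With 1 array per group no test was possible, and the number of arrays limits the precision. All members were named, with up to 4 genes of each further list having the largest differences, of which 1 gene is not reported here. The members, gene lists and markers were chosen with earlier results of these data known. Alternatives were centring, quantile and loess scaling (span 0.3), the series value table, other floors, other probe set rules, the mean, and 1.5-fold and 3-fold thresholds. Counting was tested on simulated data. Python 3.11.15, pandas 2.3.3, numpy 2.4.6, statsmodels 0.14.6 and matplotlib 3.10.9 were used.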

Additional observations from a re-analysis of the deposited data

How the results depend on the processing

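No paired analysis was possible because SOX2 KO and WT control had 1 array each, and no replicate could be left out. The count of members at least 2-fold higher was 1 as deposited, 0 under quantile scaling (Gbe1 at 0.99) and 0 with the floor on both arrays. It was 2 at a 1.5-fold threshold and 0 at a 3-fold threshold. Over all genes, 322 were at least 2-fold higher and 127 lower, with 1031 higher and 708 lower at 1.5-fold and 80 higher and 28 lower at 3-fold. The median of the members ranged from -0.052 under quantile scaling to -0.005 with centred arrays, and their mean was 0.044. The count and median of the further glycogen genes depended on the floor, as given above, in a comparison added after seeing the data. Quantile scaling put the median of all genes at -0.038 and 1 member, Pdk1, past 1.5-fold lower. Signs of the members were 16 higher and 28 lower under quantile scaling, against 19 higher and 24 lower as deposited, so the split near 0 depends on the scaling. Of 500 recomputed differences of 76 genes, 499 moved by less than the receptor SD of 0.262, and Mpc1 turned to 0.42 with probe sets of several symbols included. That alternative took the value of Mpc1 from a brighter probe set that it shares with another symbol. Restricting to probe sets on the RefSeq gene, an alternative chosen after seeing the data, put Gapdh below the floor and left 43 members with a median of -0.02. Signals near 3.84 limit what can be read for Eno1, Aldoc, Slc2a4, Pfkfb3, Ankrd37 and Epas1.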

Other observations

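The tricarboxylic acid cycle, which receives the carbon that the pyruvate dehydrogenase complex admits, was well covered, with all 13 genes found above background on both arrays. Of the 13, 7 were higher and 5 lower in SOX2 KO, with a median difference of 0.06 and 0 past 2-fold. Idh3a, encoding a subunit of the NAD-linked isocitrate dehydrogenase, read 5.80 in SOX2 KO and 6.28 in WT control, a difference of -0.48. Suclg2, for the GTP-forming succinate-CoA ligase, read 5.91 in SOX2 KO and 5.50 in WT control, a difference of 0.41. The fumarase gene Fh1 (5.72 in SOX2 KO, 5.39 in WT control) was higher and Dlst (5.32 in SOX2 KO, 5.62 in WT control), a subunit of the oxoglutarate dehydrogenase complex, was lower. Under quantile scaling the median was -0.069, with 4 of the 13 higher and 9 lower, so no common direction is given for the cycle.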
